A study of Mus musculus with 29 samples.

Results

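The windows described here are the 633 windows of 100 CpG cytosines that the deposited table of mouse lung DNA methylation labels Fgfr2, out of 260686 windows in the table. They were chosen by that label alone. They lie side by side at chr7:130161638-133124030 (GRCm38), a stretch of 2.96 Mb of which they cover 98.3%, and each window of the table inside the stretch carries the same label. Fgfr2 itself is much shorter. Its 3 tagged transcripts in GENCODE M21 span chr7:130162451-130266263 on the minus strand, 103.8 kb, and only 1 of its 27 transcripts, Fgfr2-217, reaches further. That transcript has its first exon at chr7:133123141-133123350, in the CpG-rich start of Ctbp2, and its second at chr7:133081757-133081860, and the exon after these, at chr7:130172817-130172939, lies inside Fgfr2. The windows were therefore separated by position. The Fgfr2 gene body, with 2000 bp upstream of its start, held 30 windows (4.74%), 30 neighbouring protein-coding genes held 378 (59.7%), and 225 (35.5%) lay over neither and are called the remaining stretch. Only Ctbp2 among the 30 neighbours had any window under its own name, and it had 1. The label thus followed the span of this transcript, and most of the windows lay outside the tagged transcripts of Fgfr2.

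Enzymatic methyl-sequencing of the whole genome (WGMS), a method that reads methylated cytosines after enzymatic conversion of the others, was carried out on homogenised right lung lobe of Balb/c offspring that the study describes as female and 13 weeks old. Sham (n = 7) mice were born to dams given intranasal saline and received saline aerosol. Sham-OVA (n = 7) mice were also born to dams given saline and were sensitised and challenged with ovalbumin (OVA), an egg protein that induces allergic airways disease. PM (n = 7) and PM-OVA (n = 8) mice were the saline and OVA offspring of dams given fine particulate matter (PM2.5) before mating, through gestation and until weaning, and offspring never received PM2.5 directly. A homogenate mixes cell types, so a changed share of a cell type and changed methylation within a cell type cannot be told apart. The labels do not tie mice to litters, so p-values measure the spread between these samples.

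Fgfr2 encodes a receptor tyrosine kinase for fibroblast growth factors (FGFs). In the lung its epithelial form receives FGF7 and FGF10 from the mesenchyme, drives branching of the developing airways and maintains alveolar epithelium in the adult. Methylation of CpG dinucleotides is usually low over CpG-dense gene starts and high within transcribed genes and between genes.

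All 29 libraries had a value in each of the 633 windows. The number of reads behind a percentage is unknown here, so the spread between libraries is the only measure of precision. Mean methylation over all 259167 tested windows lay between 67.8% and 70.2% in the libraries. One library stood apart: Sham replicate 1 had values in 1224 of the 1230 chromosome Y windows of the table, against 29 to 46 in the other libraries, although all mice are described as female. The counts for the stretch, its classes and the gene lists are given with it, and their Sham counts also without it.

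Sequence is shown for the windows that carry the main results, with CpG dinucleotides in capitals. Each line gives the 200 bases of a window that hold the most CpGs without any exonic base of a protein-coding transcript, on the plus strand of GRCm38. W numbers count the windows from the low-coordinate end. The first pair are the windows with the largest OVA differences in the stretch, in Lhpp (chr7:132670619-132670818, 6 CpGs) and Fam53b (chr7:132809424-132809623, 9 CpGs). The next 3 are the Fgfr2 gene body windows with the largest rises and the largest fall, at chr7:130221585-130221784 (8 CpGs), chr7:130249647-130249846 (11 CpGs) and chr7:130264014-130264213 (10 CpGs). W28 is the window of the Fgfr2 start island that passed the test, shown in the first intron at chr7:130265589-130265788 (14 CpGs). The last line, for contrast, gives the 250 bases before the RefSeq start of Fgfr2 (GRCm38.p6, chr7:130266809-130267058, minus strand), which hold only 2 CpGs.
W529 (Lhpp): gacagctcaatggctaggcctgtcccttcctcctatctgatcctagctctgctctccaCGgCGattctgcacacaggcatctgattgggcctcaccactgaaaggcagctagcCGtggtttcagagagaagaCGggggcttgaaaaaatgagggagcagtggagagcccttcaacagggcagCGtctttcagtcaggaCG
W560 (Fam53b): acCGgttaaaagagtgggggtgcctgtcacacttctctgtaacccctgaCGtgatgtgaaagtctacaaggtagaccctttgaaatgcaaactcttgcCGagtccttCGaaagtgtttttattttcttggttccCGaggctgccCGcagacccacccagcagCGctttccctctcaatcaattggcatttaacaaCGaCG
W15 (Fgfr2): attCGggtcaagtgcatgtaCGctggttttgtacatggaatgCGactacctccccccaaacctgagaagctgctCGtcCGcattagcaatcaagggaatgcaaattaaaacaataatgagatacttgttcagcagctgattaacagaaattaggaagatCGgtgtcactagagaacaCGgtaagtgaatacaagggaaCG
W22 (Fgfr2): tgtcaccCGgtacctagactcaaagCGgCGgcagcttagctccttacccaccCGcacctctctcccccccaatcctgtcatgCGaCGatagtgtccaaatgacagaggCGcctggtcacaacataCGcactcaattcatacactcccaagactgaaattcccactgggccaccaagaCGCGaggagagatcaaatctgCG
W26 (Fgfr2): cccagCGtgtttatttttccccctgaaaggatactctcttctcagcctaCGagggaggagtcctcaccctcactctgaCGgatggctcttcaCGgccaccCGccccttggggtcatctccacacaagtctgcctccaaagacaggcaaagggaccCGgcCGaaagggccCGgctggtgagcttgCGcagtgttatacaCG
W28 (Fgfr2): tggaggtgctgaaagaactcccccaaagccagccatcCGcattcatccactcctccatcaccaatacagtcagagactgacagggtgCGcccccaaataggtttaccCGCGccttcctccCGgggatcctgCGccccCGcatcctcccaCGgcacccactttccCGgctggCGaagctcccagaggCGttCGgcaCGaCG
Upstream of Fgfr2: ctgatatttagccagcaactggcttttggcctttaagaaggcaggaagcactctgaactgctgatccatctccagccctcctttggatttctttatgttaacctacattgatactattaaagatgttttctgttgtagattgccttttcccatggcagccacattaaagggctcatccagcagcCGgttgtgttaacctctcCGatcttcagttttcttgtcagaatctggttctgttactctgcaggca

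In unchallenged Sham lung, most of the stretch was highly methylated and CpG-dense windows were not. Of the 633 windows, 465 had a Sham mean of 70% or more, 87 lay from 50% to 70%, 34 from 10% to 50% and 47 under 10%. CpG-dense windows, taken as those under 1500 bp, numbered 46, and 44 of them were under 10%. The highest Sham mean was 94.9% and the lowest was 0.0130%, the latter in W453 over the start of Chst15, a sulfotransferase of chondroitin sulfate chains. Mean methylation over the windows of a class was 63.9% ± 0.530 (SD, n = 7) in the gene body, 67.0% ± 0.355 over the neighbours and 75.3% ± 0.408 in the remaining stretch, beside 69.1% ± 0.367 over all tested windows of the table.

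**Figure D1:**
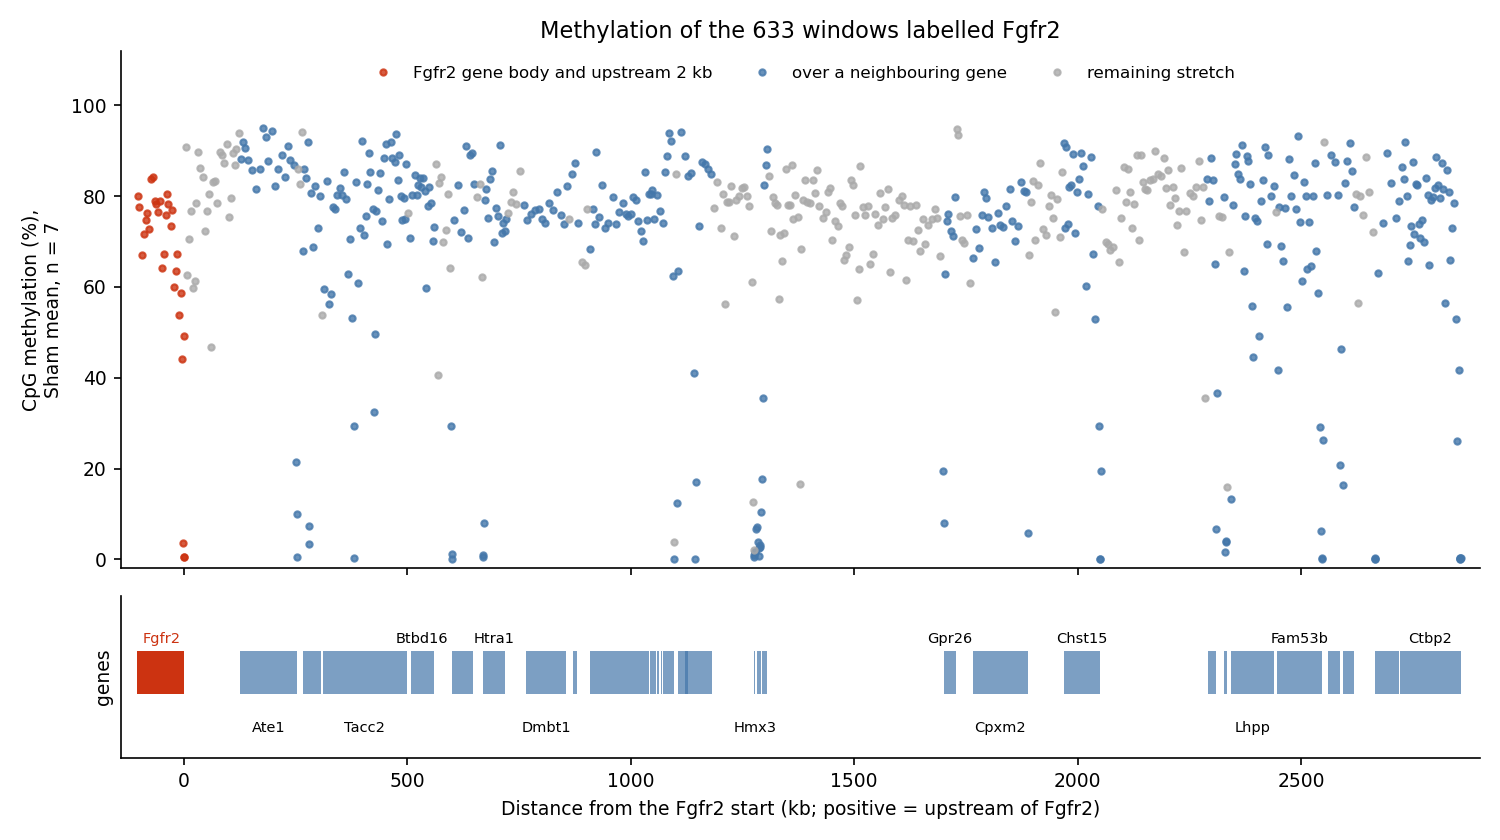
Mean CpG methylation of the 7 Sham libraries (y axis, %) in each of the 633 windows labelled Fgfr2 against the distance of the window's midpoint from the Fgfr2 start (x axis, kb), with protein-coding genes drawn below. Red points mark the 30 gene body windows, which end in a dip to near 0 at the Fgfr2 start, and most of the stretch lies upstream over other genes.

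Within the Fgfr2 gene body, 17 of the 30 windows had a Sham mean of 70% or more, 8 lay from 50% to 70%, 2 from 10% to 50% and 3 under 10%. Methylation was highest in W9 at 84.2%, 68.9 kb into the gene, and fell towards the start over the last windows of the gene. W25 had 58.6%, W26 had 44.2% and W27, which begins the start island, had 3.60%. The island was narrow. W28 (657 bp) and W29 (295 bp, 169 CpGs per kb), the window over the transcription start, had 0.504% and 0.604%, and W30, which runs 3010 bp upstream, was back at 49.2%. The first window beyond it, W31, singled out after its values were seen, had 90.8%.

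OVA changed methylation in both directions along the stretch. Differences were tested with limma on the log2 ratio of methylated to unmethylated percent, each with 1 point added, over all 259167 windows, and a window is said to have changed at an adjusted p under 0.05. In Sham offspring 244 of the 633 windows changed, 93 upwards and 151 downwards. Of all tested windows 35.6% changed, 13.3% upwards and 22.3% downwards. In PM offspring 328 changed, 68 upwards and 260 downwards, beside 44.1%, 9.26% and 34.8% of the table. The share of changed windows was thus near that of the table in Sham offspring and somewhat above it in PM offspring. Without Sham replicate 1 the counts were 231 and 326. The split between rises and falls depended on the scaling of the libraries. As deposited, 38.1% of the changed windows of the stretch rose in Sham and 20.7% in PM offspring. After each library was centred on its median difference from the mean library, the shares were 49.4% and 48.8%. Among all tested windows that changed, 37.35% rose in Sham and 21.02% in PM offspring as deposited. After centring these shares were 50.17% and 51.62%, so the split of the stretch was near that of the table in both scalings.

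Of the 633 windows 196 changed in both arms, 60 upwards in both and 136 downwards in both, with none moving in opposite directions. Among all 259167 tested windows, 70743 (27.3%) changed in both. The differences in the 2 arms, which share no library, correlated over the 633 windows with a Pearson r of 0.893 and a Spearman rho of 0.855, beside 0.879 and 0.843 over the table. Neighbouring windows are not independent, and these values are descriptions. Another 48 windows passed the threshold in Sham offspring alone and 132 in PM offspring alone. Of all tested windows, 92210 changed in Sham and 114176 in PM offspring, each count including the 70743 that changed in both. Calls in PM offspring alone thus outnumbered those in Sham offspring alone over the table too. The interaction of maternal exposure and OVA called none of the 48 or the 132 windows of the stretch.

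**Figure D2:**
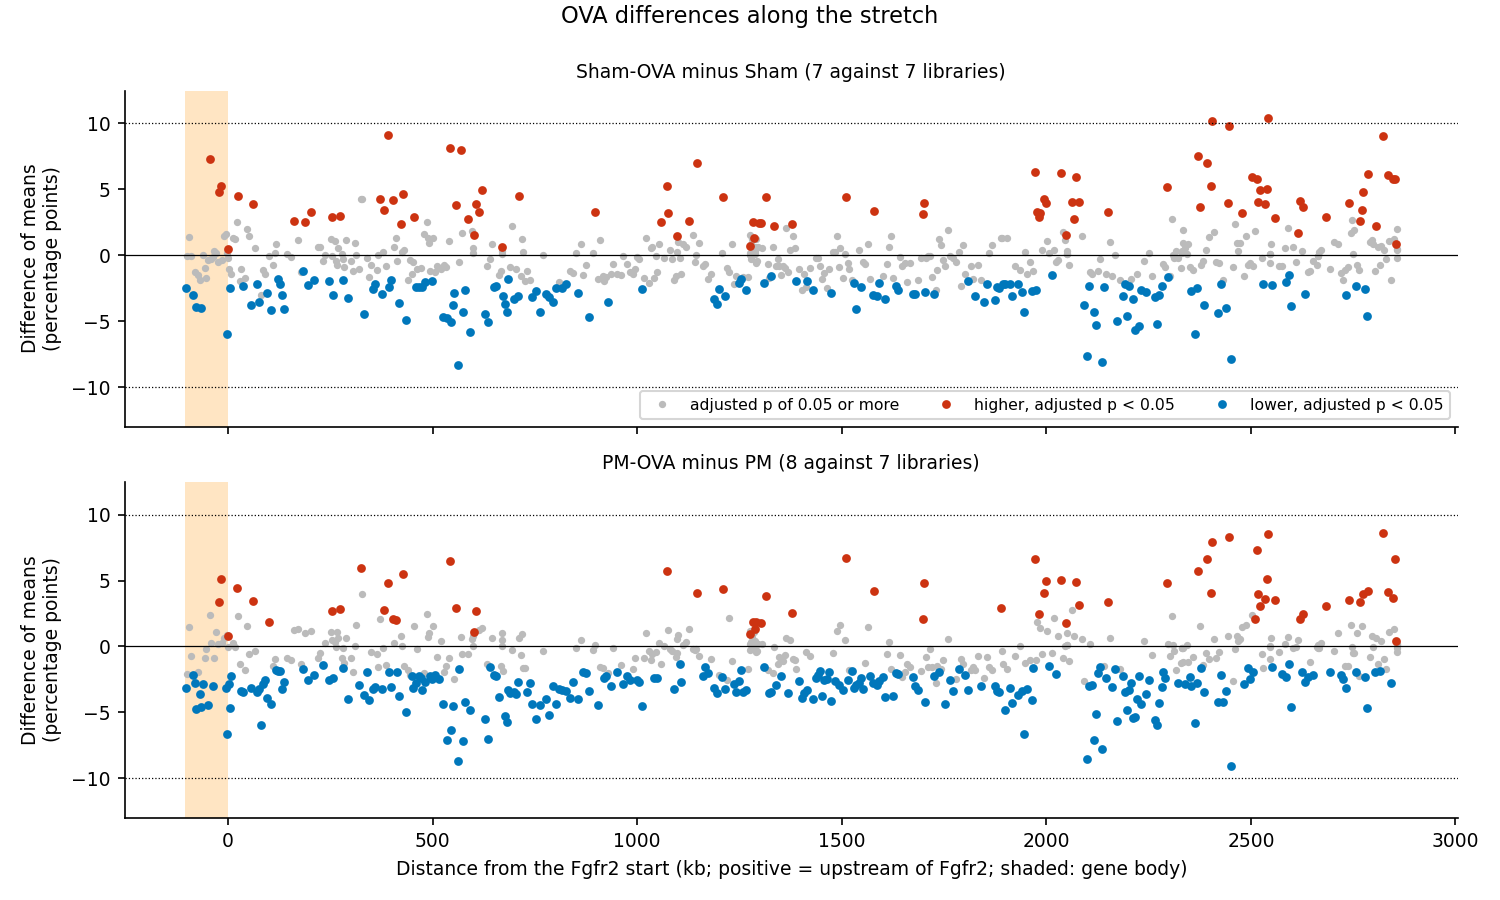
Difference of group means in percentage points (y axis) for OVA against saline in Sham (top) and PM (bottom) offspring, for each of the 633 windows by distance from the Fgfr2 start (x axis, kb). Red and blue points rose or fell at an adjusted p under 0.05, dotted lines mark 10 points, and only 2 points, both in the top panel, pass them.

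In the Fgfr2 gene body, with or without Sham replicate 1, 9 of 30 windows changed in Sham offspring, 4 upwards and 5 downwards, and 15 changed in PM offspring, 3 upwards and 12 downwards, beside 35.6% and 44.1% of the table. Of these, 8 changed in both arms and in the same direction. Over the 30 windows the median of the differences was −0.219 points in the Sham arm and −0.879 points in the PM arm, beside −0.414 and −1.03 over all tested windows. Leaving out 1 library gave medians from −0.368 to −0.0836 points in the Sham arm and from −1.24 to −0.568 points in the PM arm. With centred libraries the gene body counts were 4 upwards and 4 downwards in Sham offspring and 7 and 7 in PM offspring, with medians of 0.110 and 0.101 points, so no direction was given to the gene body as a whole. Windows with an exonic base of a tagged transcript numbered 15, of which 5 changed in Sham and 10 in PM offspring. Among the 15 others, 4 changed in Sham and 5 in PM offspring. These subsets were not tested against the table.

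No change was detected at the transcription start with the values as deposited. In W29 (chr7:130266103-130266397) the Sham libraries ran from 0% through a median of 0.400% to 1.81%, Sham-OVA from 0.111% through 0.440% to 0.861%, PM from 0.0667% through 0.150% to 1.54% and PM-OVA from 0.114% through 0.172% to 2.29%. The 4 groups overlapped throughout. The differences were −0.176 points in Sham (adjusted p = 0.764) and −0.0104 points in PM offspring (adjusted p = 0.930). Centring, which moves a library by the same number of points in each window, gave a PM rise of 0.727 points (adjusted p = 0.0360).

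Just inside the gene, W28 (chr7:130265446-130266102) rose from a very low level. Sham libraries ran from 0.113% through 0.580% to 0.787% and Sham-OVA from 0.664% through 0.985% to 1.32%, a rise of 0.483 points (log2 ratio 0.42 ± 0.12 SE, adjusted p = 0.00772). PM libraries ran from 0.143% through 0.406% to 0.753% and PM-OVA from 0.819% through 1.13% to 1.92%, a rise of 0.816 points (log2 ratio 0.67 ± 0.12 SE, adjusted p = 4.24e-05). The PM and PM-OVA libraries were fully separate, while the Sham and Sham-OVA libraries overlapped at their edges. Tested on percentages without the log ratio, the Sham rise did not pass (adjusted p = 0.182). W27 (chr7:130264282-130265445), the remaining CpG-dense window of the gene body, differed by 0.210 points in Sham (adjusted p = 0.769) and by 0.857 points in PM offspring (adjusted p = 0.0654), where centring gave 1.84 points (adjusted p = 0.000508).

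The shore of the island moved the other way. W26 (chr7:130262167-130264281), in the first intron of the tagged transcripts, had 41.4% to 49.6% in Sham libraries with a median of 43.6%, and 33.8% to 49.5% in Sham-OVA libraries with a median of 36.8%. PM libraries lay from 38.5% to 49.0% with a median of 44.3%, and PM-OVA libraries from 31.2% to 41.3% with a median of 37.5%. It fell by 5.95 points in Sham (log2 ratio −0.35 ± 0.12 SE, adjusted p = 0.0181) and fell by 6.62 points in PM offspring (log2 ratio −0.39 ± 0.11 SE, adjusted p = 0.00587). The groups overlapped in both arms, and Sham-OVA replicate 4, at 49.5%, sat among the unchallenged libraries.

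Further in, the largest rise of the gene body was in W15 (chr7:130220515-130223573), an intronic window. Sham libraries ran from 64.3% through 67.7% to 69.7% and Sham-OVA libraries from 69.2% through 74.9% to 78.5%, a rise of 7.29 points (adjusted p = 0.000190). In PM offspring the window went from 70.5% ± 4.00 to 72.8% ± 1.78 (SD), a difference of 2.35 points that did not pass (adjusted p = 0.177). PM replicate 6 lay at 62.0%, under all Sham libraries, and with centred libraries the PM rise passed (adjusted p = 0.0462). Without that library the PM difference was 0.944 points. The interaction at this window had an unadjusted p of 0.0152 and an adjusted p of 0.616, so a difference between the arms was not shown.

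A pair of adjacent windows about 20 kb inside the gene rose in both arms. W21 (chr7:130242592-130247060) lay from 58.3% to 61.6% in Sham and from 62.2% to 68.4% in Sham-OVA libraries, with no overlap, and rose by 4.77 points (adjusted p = 0.000734). Its rise in PM offspring was 3.39 points (adjusted p = 0.00801). W22 (chr7:130247061-130250011) rose by 5.22 points in Sham (adjusted p = 0.0117) and by 5.12 points in PM offspring (adjusted p = 0.00961), where PM libraries reached 65.5% and PM-OVA libraries began at 66.8%.

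Falls in the gene body lay mostly towards its 3′ end. W10 (chr7:130198825-130203250) fell from 79.0% ± 1.84 to 75.0% ± 1.76 (SD) in Sham (adjusted p = 0.000326) and from 79.7% ± 1.11 to 75.1% ± 0.993 in PM offspring (adjusted p = 2.70e-05). W7 (chr7:130186775-130191346) fell by 3.90 points in Sham (adjusted p = 0.00433) and fell by 4.71 points in PM offspring (adjusted p = 0.000373). In both windows the PM and PM-OVA libraries were separate and the Sham and Sham-OVA libraries overlapped.

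**Figure D3:**
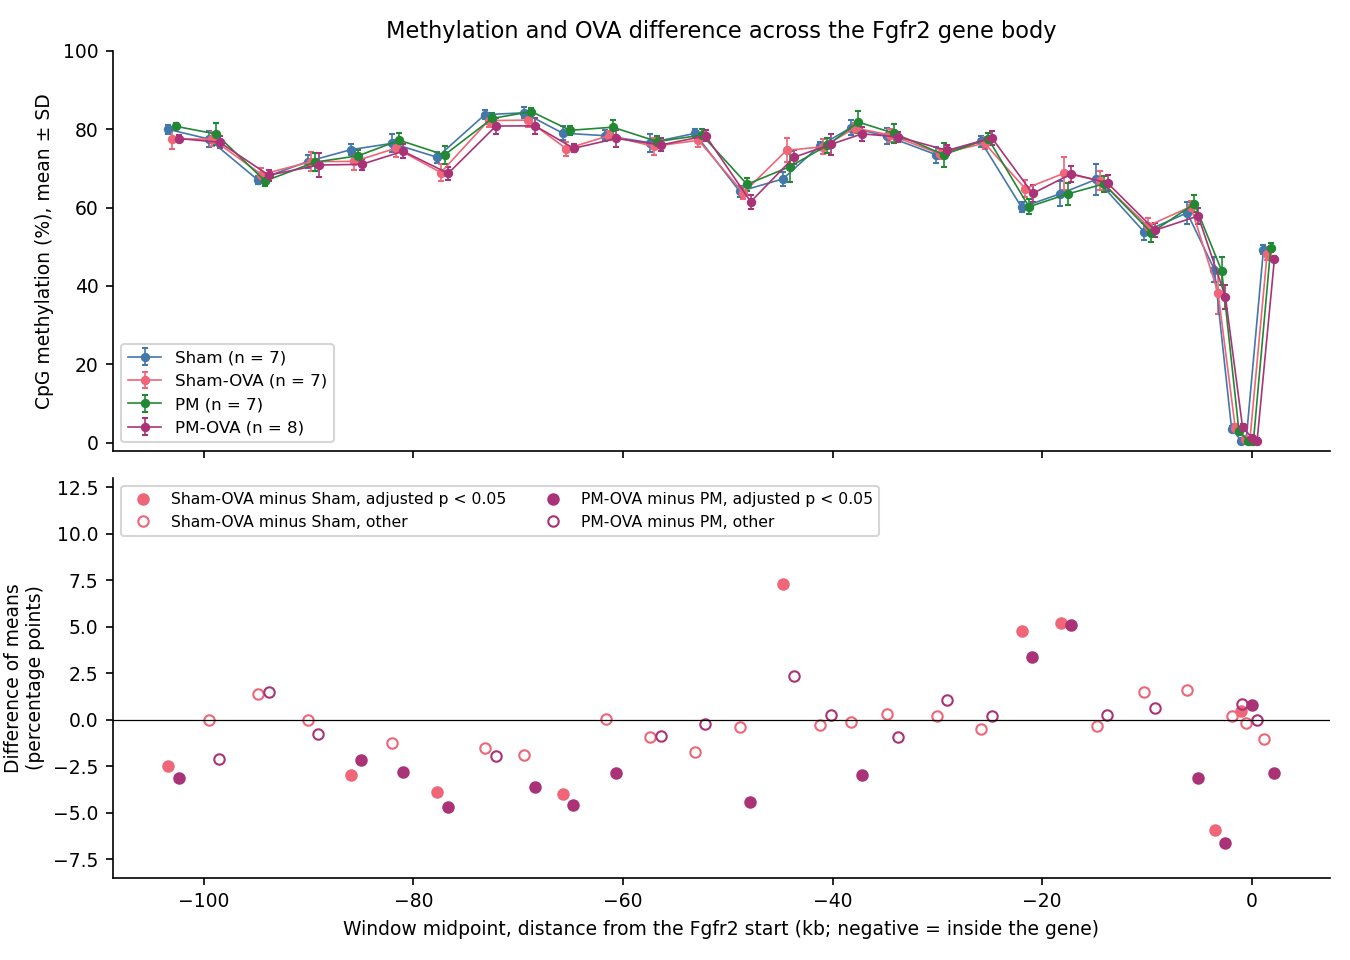
Top, mean CpG methylation ± SD (y axis, %) of the 4 groups in the 30 windows of the Fgfr2 gene body against distance from the start (x axis, kb), with points of the groups set slightly apart for reading. Bottom, OVA differences in percentage points, filled where the adjusted p was under 0.05: rises stand at −44.2, −21.4 and −17.7 kb, and falls of −5.95 and −6.62 points stand at −3.04 kb, beside the unmethylated start.

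By the criterion of differentially methylated regions (DMRs), an adjusted p under 0.05 with a difference of at least 10 points, 2 windows qualified in Sham and 0 in PM offspring, and at an adjusted p under 0.000001 neither of the 2 did. Over all tested windows the DMR shares were 0.775% and 0.584%. Neither lay in Fgfr2. W529 (chr7:132670220-132674156, 2406 kb upstream of the Fgfr2 start) lies over Lhpp, which encodes a phospholysine phosphohistidine inorganic pyrophosphate phosphatase, and 244 of its 3937 bases are exonic. Sham libraries ran from 47.1% through 48.9% to 52.7%, Sham-OVA from 53.2% through 58.7% to 65.3%, PM from 45.3% through 48.8% to 54.4% and PM-OVA from 53.5% through 57.0% to 58.5%. Sham and Sham-OVA did not overlap, and in the PM arm PM replicate 1, at 54.4%, lay above the lowest PM-OVA library. The rises were 10.2 points in Sham (log2 ratio 0.59 ± 0.09 SE, adjusted p = 6.13e-06) and 7.91 points in PM offspring (adjusted p = 8.12e-05).

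W560 (chr7:132807114-132810558) lies over Fam53b, a regulator of Wnt signalling, a few kb downstream of that gene's start island, and 92 of its 3445 bases are exonic. Sham libraries ran from 24.5% through 29.8% to 31.8% and Sham-OVA from 35.8% through 39.5% to 43.6%, with no overlap. PM libraries ran from 26.1% through 29.0% to 31.9% and PM-OVA from 29.5% through 37.9% to 43.5%, where 1 PM-OVA library fell among the PM libraries. The rises were 10.4 points in Sham (log2 ratio 0.66 ± 0.10 SE, adjusted p = 5.86e-06) and 8.50 points in PM offspring (adjusted p = 3.48e-05). Without Sham replicate 1, W560 rose by 9.64 points and only W529, at 10.2 points, remained a DMR.

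The windows nearest under the 10 point line were 2 rises in Sham and 2 falls in PM offspring. W538 (Fam53b) rose by 9.80 and W111 (Tacc2) by 9.15 points in Sham offspring, and in PM offspring W539 (Fam53b) fell by 9.07 points and W156 (Btbd16) fell by 8.71 points.

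**Figure D4:**
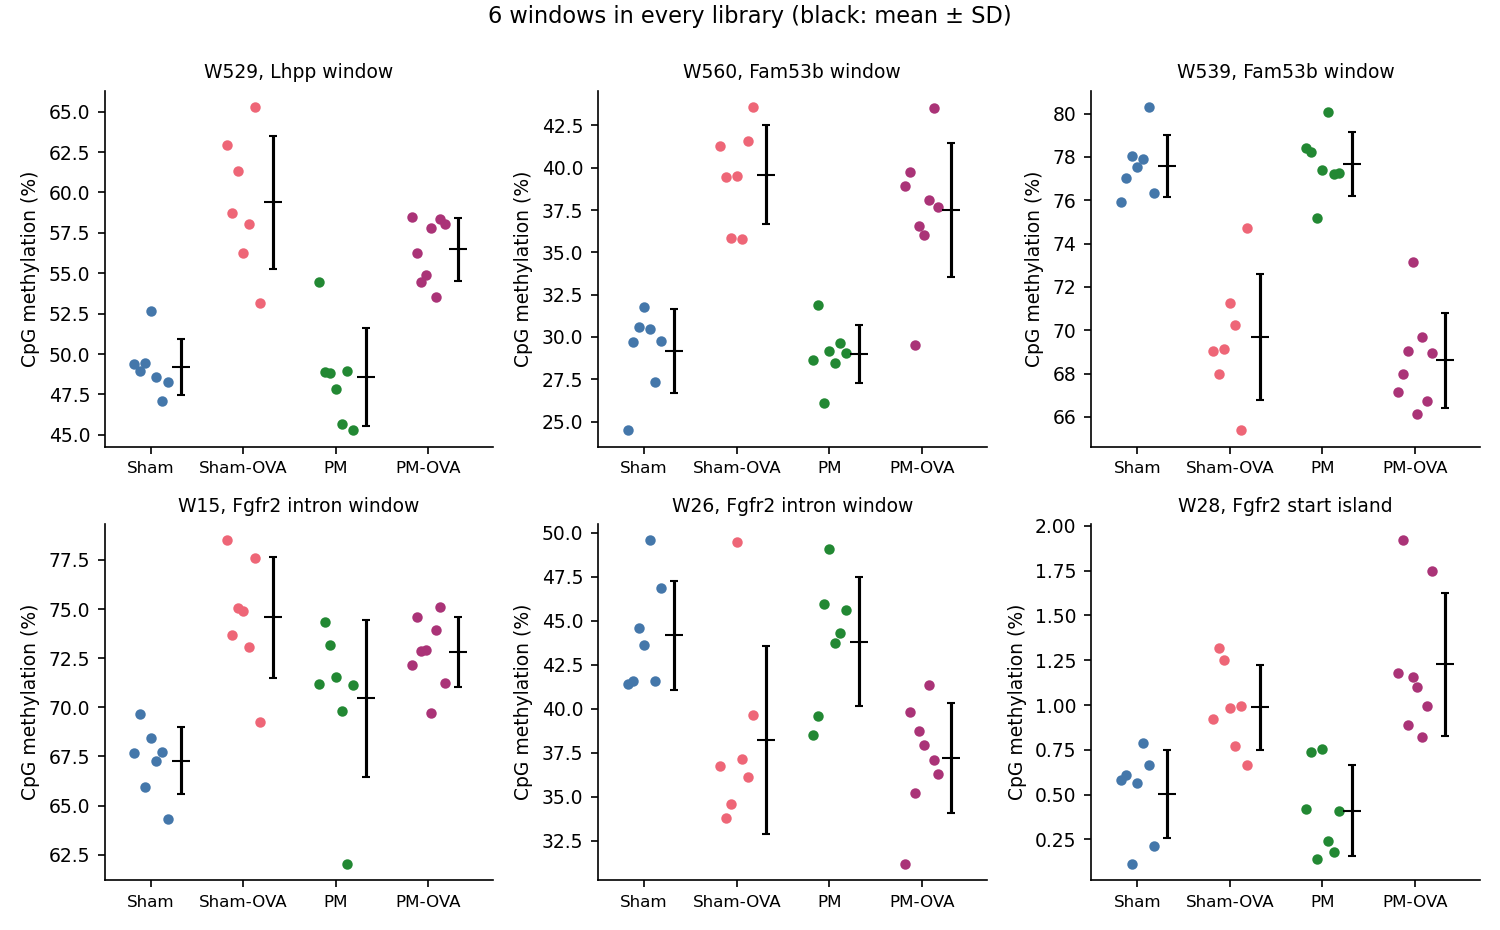
CpG methylation (y axis, %, each panel with its own range, not starting at 0) of 6 windows in each of the 29 libraries by group, with mean ± SD in black. W529 and W560 rise with OVA and W539 falls in both arms, W15 overlaps in both arms, with PM replicate 6 at 62.0%, and W26 and W28 in Fgfr2 move in opposite directions.

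Fam53b held 27 windows and the widest range of differences in the stretch. In Sham offspring 9 rose and 2 fell, and in PM offspring 8 rose and 5 fell, with 11 and 2, and 15 and 2, after centring, beside 13.3% of all tested windows rising and 22.3% falling in Sham and 9.26% and 34.8% in PM offspring as deposited. Adjacent windows at its 3′ end moved in opposite directions. W538 (chr7:132711997-132715701), of which 3620 of 3705 bases are exonic, rose from 41.6% ± 2.36 to 51.4% ± 3.74 in Sham (adjusted p = 7.26e-06) and by 8.30 points in PM offspring (adjusted p = 2.98e-05). W539 (chr7:132715713-132720423), 290 exonic bases of 4711, fell from 77.6% ± 1.44 to 69.7% ± 2.90 in Sham (adjusted p = 2.50e-06) and fell by 9.07 points in PM offspring (adjusted p = 1.50e-07). In both windows and both arms the challenged and unchallenged libraries did not overlap.

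The other large rises and falls outside Fgfr2 were also shared by the arms. W111 (chr7:130654561-130657862) over Tacc2, a centrosome-associated coiled-coil gene, ran from 56.9% to 63.9% in Sham and from 67.1% to 71.6% in Sham-OVA libraries, with no overlap, and rose by 9.15 points (adjusted p = 1.72e-06) and by 4.82 points in PM offspring (adjusted p = 0.00159), where the groups overlapped. Its interaction had an unadjusted p of 0.0154. W620 (chr7:133087053-133090686), in Ctbp2, which encodes a transcriptional corepressor, rose by 9.07 points in Sham (adjusted p = 2.10e-05) and 8.59 points in PM offspring (adjusted p = 2.43e-05), with separate groups in both. W156 (chr7:130824966-130829617) covers the 3′ end of Btbd16 with 934 of its 4652 bases, and fell by 8.34 points in Sham (adjusted p = 4.17e-06) and fell by 8.71 points in PM offspring (adjusted p = 9.90e-07).

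In the remaining stretch more windows fell than rose, both as deposited and after centring. Over the table falls exceeded rises as deposited but not after centring. As deposited, 13.3% of all tested windows rose and 22.3% fell in Sham, and 9.26% rose and 34.8% fell in PM offspring. After centring, 47980 of all tested windows rose and 47650 fell in Sham, and 56444 rose and 52897 fell in PM offspring. Of the 225 windows of the remaining stretch, 20 rose and 70 fell in Sham and 13 rose and 123 fell in PM offspring. Their median differences were −1.22 and −2.03 points. After centring, 29 rose and 60 fell in Sham and 22 rose and 79 fell in PM offspring. Over the neighbours the counts were 69 up and 76 down, and 52 up and 125 down, which turned to 89 and 61, and 116 and 66, after centring. Without Sham replicate 1 the remaining stretch had 17 rises and 64 falls in Sham and 13 and 122 in PM offspring, and the neighbours had 65 and 76, and 53 and 123. The largest falls of the remaining stretch stood between Chst15 and Oat, a gap of 234 kb with 43 windows. There 5 rose and 21 fell in Sham offspring and 3 rose and 29 fell in PM offspring. W462 (chr7:132362275-132366857) fell from 75.2% ± 1.60 to 67.5% ± 2.34 in Sham (adjusted p = 3.40e-06) and fell by 8.55 points in PM offspring (adjusted p = 2.85e-07), with no overlap in either arm. W470 (chr7:132401342-132405321) fell by 8.07 points in Sham (adjusted p = 8.62e-06) and fell by 7.77 points in PM offspring (adjusted p = 6.42e-06), and 1 Sham-OVA library, at 69.1%, stayed among the Sham libraries.

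The gap next to Fgfr2, 122 kb with 27 windows between its upstream region and Ate1, had 2 rises and 8 falls in Sham and 3 rises and 14 falls in PM offspring. Its first window, W31, fell from 90.8% ± 0.709 to 88.4% ± 0.840 in Sham (adjusted p = 0.00200) and from 91.4% ± 1.30 to 86.7% ± 1.60 in PM offspring (adjusted p = 7.07e-07). The longest gap, 389 kb with 75 windows between Bub3 and Gpr26, had 5 rises and 17 falls in Sham and 4 rises and 41 falls in PM offspring. Without Sham replicate 1 its counts were 3 and 14, and 4 and 40, and those of the gap between Chst15 and Oat were 5 and 19, and 3 and 29. Falls exceeded rises in these gaps with and without centring. As deposited, the Sham falls in the longest gap stood near the 22.3% of the table. After centring, the table had 47980 rises and 47650 falls in Sham and 56444 and 52897 in PM offspring.

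Baseline level went with direction. With windows banded by the unchallenged mean of the other maternal arm, so that level and difference share no library, 9 of the 47 windows under 10% rose and 1 fell in Sham offspring, and the counts were the same in PM offspring. The table had 18.7% rising and 2.82% falling in this band in Sham and 16.6% and 3.40% in PM offspring. From 10% to 50%, 14 of 34 rose and 3 fell in Sham, and 13 rose and 6 fell in PM offspring. From 50% to 70%, 24 of 81 rose and 6 fell in Sham, and 24 of 87 rose and 13 fell in PM offspring. At 70% and over, 46 of 471 rose and 141 fell in Sham, and 22 of 465 rose and 240 fell in PM offspring. Of all tested windows, 25.0% rose and 12.0% fell in the band from 10% to 50% in Sham offspring, and 20.6% rose and 15.3% fell in PM offspring. From 50% to 70% the table had 9407 rises and 6333 falls among 42106 windows in Sham, and 7112 rises and 10487 falls among 43387 windows in PM offspring, where its falls exceeded its rises and those of the stretch did not. At 70% and over, 9.40% of the table rose and 27.0% fell in Sham, and 5.57% rose and 42.6% fell in PM offspring. In the 10% to 50% band the members' rises, 41.2% of windows in Sham and 38.2% in PM offspring, stood above the 25.0% and 20.6% of the table. They were not tested against it.

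Among the 30 neighbouring genes, start windows ran from near 0 to high methylation. Taking for each gene the start window with the lowest Sham mean (28 different windows, since 2 pairs of genes share one), 16 genes had one under 10%, 7 one from 10% to 50% and 7 one over 50%, such as Dmbt1 at 78.1% and Cuzd1 at 80.2%. Start windows over 50% were 5379 to 10034 bp long and those under 10% were 334 to 1310 bp, so the former hold much sequence beside the start. Of the 16, 2 changed in Sham and 3 in PM offspring. They are to be read against the shares of all tested windows under 10% given above. The start window of Nsmce4a, a subunit of the SMC5/6 complex, fell from 7.27% ± 0.768 to 5.38% ± 0.661 in Sham (adjusted p = 0.000451) and fell by 1.61 points in PM offspring (adjusted p = 0.000857). That of Htra1, a secreted serine protease, rose by 0.635 points in Sham offspring (adjusted p = 0.00285) and differed by 0.00780 points in PM offspring (adjusted p = 0.801). The start windows of Cpxm2, a carboxypeptidase family member, and Hmx2 rose by 2.94 points (adjusted p = 0.000267) and 1.35 points (adjusted p = 0.000777) in PM offspring, and their differences of 1.34 and 0.654 points in Sham offspring did not pass (adjusted p = 0.0877 and 0.0776). With centred libraries the PM fall at Nsmce4a (W87) was lost (adjusted p = 0.246), and Htra1 (W180) in PM (adjusted p = 0.00190) and Cpxm2 (W417) and Hmx2 (W297) in Sham offspring (adjusted p = 0.0237 and 0.0391) rose. Among start windows over 50%, Dmbt1 (W201) fell by 4.29 points in Sham (adjusted p = 0.000765) and by 4.41 points in PM offspring (adjusted p = 0.000356). At 4933402N03Rik (W217) the falls were 4.70 and 3.41 points (adjusted p = 1.19e-05 and 0.000370). Cuzd1 (W247) rose by 2.53 points in Sham (adjusted p = 0.0467, and 0.0713 without Sham replicate 1). Btbd16 (W142) fell by 2.13 points in PM offspring (adjusted p = 0.0302, and 0.237 with centred libraries).

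Start windows from 10% to 50% varied. Those of Oat, Lhpp and Bub3 did not pass in either arm, with differences from −0.464 to 0.124 points. That of Abraxas2, at 46.4%, did not pass either, with differences of 2.04 points in Sham (adjusted p = 0.0650) and 0.755 points in PM offspring (adjusted p = 0.486), and its Sham rise passed with centred libraries (W571, adjusted p = 0.0360) and without Sham replicate 1 (adjusted p = 0.0448). That of Pstk fell by 1.31 points in PM offspring (adjusted p = 0.0207) but not with centred libraries (W258, adjusted p = 0.640). At Gpr26, an orphan G protein-coupled receptor gene, the start window rose from 19.6% by 3.09 points in Sham (adjusted p = 0.00700) and by 2.10 points in PM offspring (adjusted p = 0.0392, and 0.0534 with the replicate number as a block). At Eef1akmt2, a lysine methyltransferase gene, from a level of 20.8% it fell by 2.02 points in Sham (adjusted p = 0.00534) and fell by 2.34 points in PM offspring (adjusted p = 0.000917). Acadsb encodes an acyl-CoA dehydrogenase of branched-chain amino acid breakdown. Its start window shared with Ikzf5, at 0.156%, did not pass in either arm, while the window beside it inside Acadsb (W266, chr7:131410637-131412634, singled out after its values were seen) rose from 17.0% ± 1.62 to 24.0% ± 1.95 in Sham (adjusted p = 1.41e-06) and from 19.5% ± 1.79 to 23.5% ± 1.86 in PM offspring (adjusted p = 0.000802).

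Homeobox genes of the stretch were unmethylated over their bodies too. Hmx3, a transcription factor of the inner ear, had a median of 1.69% over 5 windows, Hmx2 a median of 3.16% over 7 windows and Nkx1-2 a median of 3.95% over 4 windows. No window of Hmx3 or Nkx1-2 passed in either arm, and 2 of the 7 Hmx2 windows rose in Sham and 3 in PM offspring. With so few windows these counts are not set apart from the table, where 18.7% of windows under 10% rose in Sham and 16.6% in PM offspring. After centring, which adds the same shift in points to windows near 0, 2 Hmx3 windows rose in Sham and 4 in PM offspring, Hmx2 had 4 and 6 rises, and 1 Nkx1-2 window rose in PM offspring. Hmx2 had 2 rises and 1 fall in Sham offspring without Sham replicate 1.

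Across whole gene bodies, 3 neighbours had falls and no rise in both arms. One was Dmbt1, which encodes a secreted scavenger receptor of mucosal surfaces. Of its 13 windows 8 fell in Sham and 11 in PM offspring and none rose, with medians of −2.45 and −3.38 points, and after centring 8 fell in each arm. The others were 5430419D17Rik, with 2 and 11 falls among 23 windows, and 4933402N03Rik, with 1 and 3 falls among 3 windows, and after centring these had 2 and 3, and 1 and 1, falls, with 1 PM rise in 5430419D17Rik. The shares of the table given for the remaining stretch are the background of the counts as deposited in this paragraph. Its centred counts, given there too, are the background of the centred ones. Chst15 had 8 rises and 2 falls among 22 windows in Sham and 6 rises and 3 falls in PM offspring, which turned to 9 and 14 rises and no fall after centring. Its Sham counts were 7 and 1 without Sham replicate 1. Ctbp2 had 11 rises and 4 falls among 41 windows in Sham and 9 of each in PM offspring, with 14 and 4, and 15 and 2, after centring. Tacc2, with 47 windows the most of any neighbour, had 7 rises and 13 falls in Sham and 6 and 21 in PM offspring, with 8 and 10, and 12 and 14, after centring. A window over 2 genes was counted for both.

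**Figure D5:**
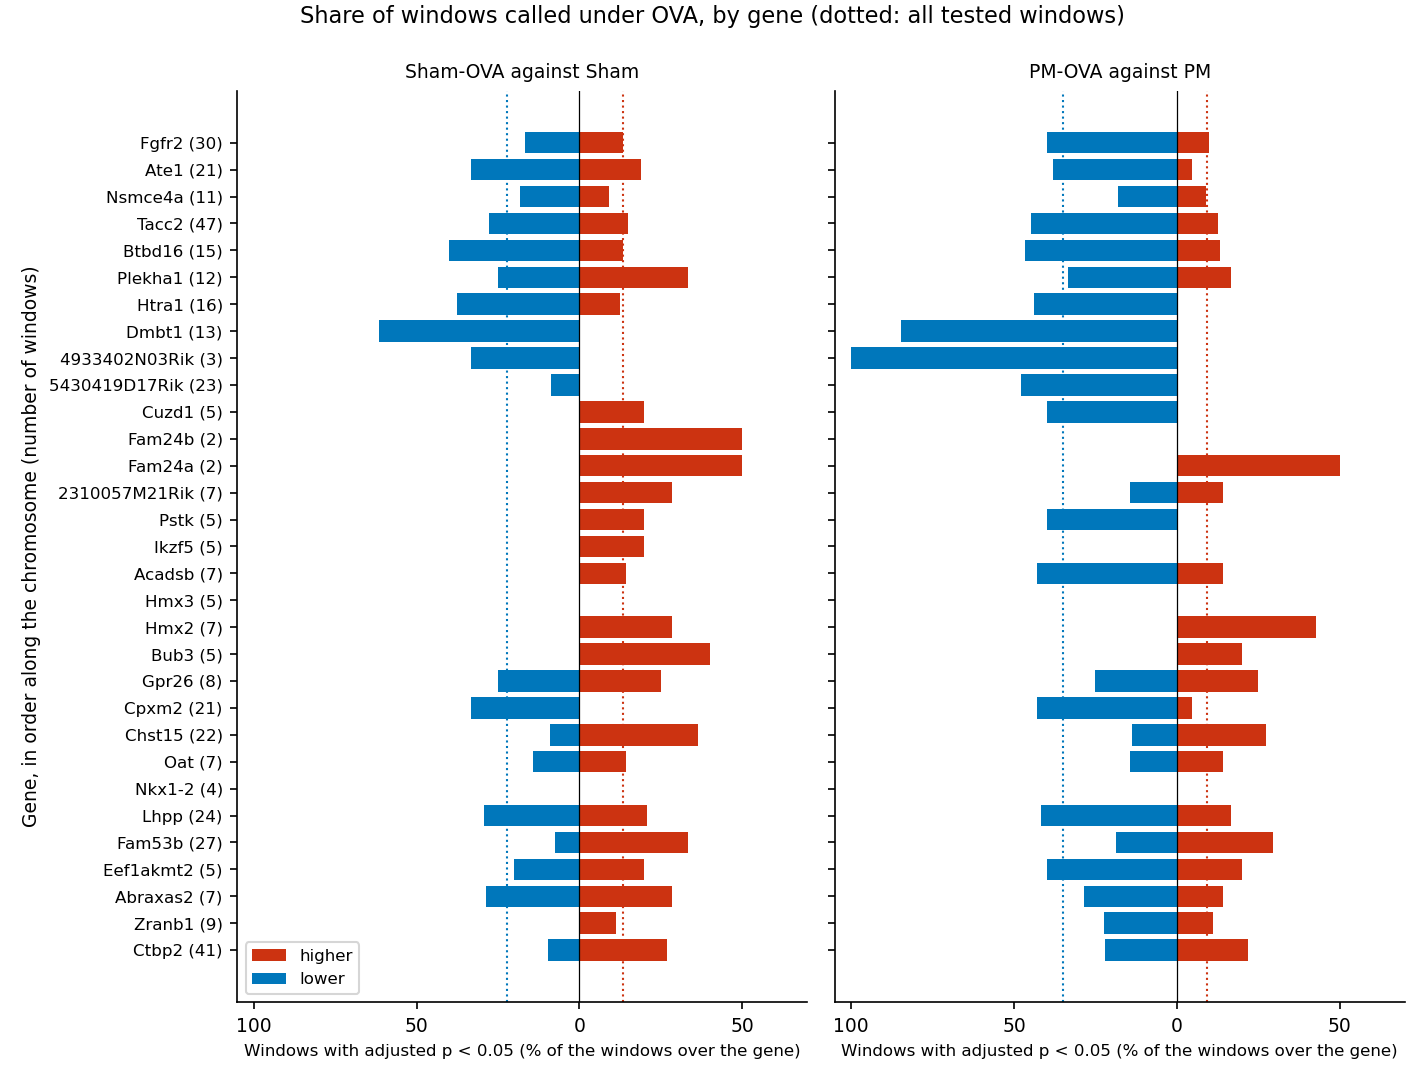
Share of each gene's windows that rose (red, right) or fell (blue, left) with OVA at an adjusted p under 0.05 in Sham and PM offspring (x axis, %), for the Fgfr2 gene body and the 30 neighbours in chromosomal order, with the number of windows in brackets and dotted lines at the shares of the table. Dmbt1 shows 8 and 11 falls of 13 windows and no rise, Hmx3 and Nkx1-2 show no bar, and genes with under 5 windows rest on 1 to 3 calls.

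Maternal exposure alone changed no window of the stretch by limma at an adjusted p under 0.05. The counts were 0 of 633 for PM against Sham, 0 for PM-OVA against Sham-OVA and 0 for the interaction, as they were over the table (0% of windows in each). At an unadjusted p under 0.05 there were 45, 40 and 62 of the 633 windows, where the table had 5.79%, 5.96% and 7.40%. The gene body held 3, 2 and 4 of them. The smallest p for PM against Sham was at W52 (chr7:130366027-130369249), upstream of Fgfr2, with 75.3% ± 0.728 in Sham and 73.3% ± 1.02 in PM libraries (unadjusted p = 0.00146). For PM-OVA against Sham-OVA it was at W348 (chr7:131771684-131775291), with 57.3% and 60.5% (unadjusted p = 0.00131).

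The interaction had its smallest p at W56 (chr7:130382123-130386406), between Fgfr2 and Ate1. There Sham libraries had a median of 90.5% and Sham-OVA libraries 91.5%, PM libraries 91.2% and PM-OVA libraries 89.4%. The differences of the group means were 0.819 points and −1.79 points and their contrast −2.61 points (unadjusted p = 0.000841, adjusted p = 0.551). All 4 groups overlapped.

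Other genes of the FGF pathway, whose windows lie elsewhere in the genome, are given for context from a list of 26 genes, 24 of which had windows under their own names (308 windows). In Sham offspring 71 of these windows rose and 46 fell, and in PM offspring 53 rose and 78 fell, which turned to 91 and 39, and 117 and 51, after centring. Without Sham replicate 1 the counts were 67 and 45, and 53 and 79. The changed windows made up 38.0% in Sham and 42.5% in PM offspring, near the 35.6% and 44.1% of the table. Of all tested windows 13.3% rose and 22.3% fell in Sham and 9.26% rose and 34.8% fell in PM offspring. The counts of single genes and groups of the list as deposited are to be read against these shares. Their centred counts are to be read against those of the 259167 windows of the table after centring. These were 47980 rises and 47650 falls in Sham and 56444 and 52897 in PM offspring. Over the receptors Fgfr1, Fgfr3, Fgfr4 and Fgfrl1, 9 of 45 windows rose and 8 fell in Sham and 5 rose and 16 fell in PM offspring, with 12 and 6, and 7 and 12, after centring. Over the ligands, 6 of 45 rose and 4 fell in Sham and 3 rose and 13 fell in PM offspring, with 8 and 4, and 15 and 6, after centring. Among these, Fgf10, the mesenchymal ligand of Fgfr2, had 3 rises and 4 falls among 16 windows in Sham and 0 and 7 in PM offspring. Over the adaptors and effectors, 29 of 121 rose and 23 fell in Sham and 25 rose and 31 fell in PM offspring, with 41 and 20, and 54 and 22, after centring. Their genes went different ways. Grb2, an adaptor that links receptors to Ras signalling, had 12 falls among 17 windows in each arm and no rise, while Gab1, a docking protein, had 15 rises and 5 falls among 32 windows in Sham and 8 and 11 in PM offspring, and Plcg1, a phospholipase, had 5 and 1, and 6 and 1, among 12 windows. Over the feedback inhibitors and targets, 27 of 97 rose and 11 fell in Sham and 20 rose and 18 fell in PM offspring, with 30 and 9, and 41 and 11, after centring. The Sham counts without Sham replicate 1 were 8 and 8 for the receptors, 5 and 4 for the ligands, 31 and 23 for the adaptors and effectors and 23 and 10 for the inhibitors and targets.

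Marker genes of lung cell types, given beside the results, did not move as one within a list. Over 8 leucocyte marker genes (54 windows), mean methylation was 68.0% to 69.1% in Sham libraries and 66.2% to 67.3% in Sham-OVA libraries, and 68.2% to 69.4% in PM and 66.4% to 67.1% in PM-OVA libraries, with 31 and 32 windows changed in the 2 arms (57.4% and 59.3%, beside 35.6% and 44.1% of the table). There were 14 rises and 17 falls in Sham and 12 and 20 in PM offspring, with 18 and 17, and 19 and 18, after centring. Of these genes Cd3e and Cd3g, of the T cell receptor complex, had no changed window in either arm, and Itgam, an integrin of myeloid cells, had 3 rises and 1 fall in Sham and 2 and 1 in PM offspring. Ptprc, the pan-leucocyte CD45, had 5 rises and 6 falls among 15 windows in Sham and 5 and 8 in PM offspring, with 3 DMRs in each arm. Spi1, a myeloid transcription factor, had 4 and 5, and 3 and 5, among 10 windows, and Cd79a, of the B cell receptor, fell in 2 of 2 windows in both arms. Lck had 1 and 2, and 2 and 3, among 8 windows. The library means of the list did not overlap between challenged and unchallenged mice in either arm. Over 3 endothelial genes (54 windows) the library means were 68.2% to 71.0% and 71.1% to 73.2% in the Sham arm and 68.1% to 72.2% and 70.6% to 73.0% in the PM arm, with 30 and 27 windows changed (55.6% and 50%), where the libraries overlapped in the PM arm. There were 25 rises and 5 falls, and 19 and 8, with 27 and 5, and 27 and 6, after centring. Over 5 epithelial genes (36 windows) they were 51.1% to 53.0% and 52.0% to 52.9%, and 51.8% to 53.1% and 51.4% to 52.8%, with 13 and 11 windows changed (36.1% and 30.6%), and the libraries overlapped in both arms. There were 9 rises and 4 falls, and 5 and 6, with 14 and 4, and 13 and 4, after centring, and Nkx2-1, a transcription factor of lung epithelium, rose in 5 and 4 of its 6 windows. Cdh1, an epithelial cadherin, had 1 rise and 3 falls among 18 windows in Sham and 1 and 6 in PM offspring. Epcam had 1 rise and 1 fall in Sham and none in PM offspring, Sftpb had 2 rises in Sham and none in PM offspring, and Sftpc had no changed window. Leaving out Sham replicate 1, the Sham arm had 12 rises and 18 falls for leucocytes, 25 and 6 for endothelium and 7 and 4 for epithelium. Their part in the differences of the Fgfr2 stretch was not tested.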

How the data were processed

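Lung DNA of 29 mice was measured by WGMS. Per the labels, Trim Galore trimmed the reads and DRAGEN aligned them to GRCm38 and called cytosines, and the deposited values are the percent methylation of each window of 100 CpG cytosines in each library, made by the authors in SeqMonk with a minimum number of informative CpGs. Neither counts nor coverage are used here, so the depth behind each window is unknown. The windows, classes and gene lists were chosen with earlier results of these data known. Windows with at least 3 values per group (259167) were fitted in limma 3.58.1 (R 4.3.3) on the log2 ratio of methylated to unmethylated percent, each with 1 point added, with 4 group means, and p-values were two-sided and Benjamini-Hochberg adjusted over all tested windows. The study's count-based test needs reads and could not be used, and its p threshold of 0.000001 was an alternative. Named windows were those over the Fgfr2 start, CpG-dense windows (under 1500 bp) of the gene body, DMRs, the 3 largest significant rises and falls inside and outside the gene body in each arm, the smallest p of each other comparison, and the 2 windows on each side of 10 points. Positions came from GENCODE M21 and RefSeq. The fit was tested on simulated data. Replicates with the same number in their titles did not deviate together, so the replicate block was an alternative only. These numbers do not all match those in the library names, so a pairing carried by the library names was not tested.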

Additional observations from a re-analysis of the deposited data

Results flagged for a closer look

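In 96 groups of 7 or 8 libraries examined (the named windows and the class means in each of the 4 groups), 10 had a single library far from the others, beside about 1 in 20 by chance. At the Fgfr2 start (W29), PM-OVA replicate 3 had 2.29%, with the next PM-OVA library at 0.633%. In the Fgfr2 gene body, PM replicate 6 had 62.0% in W15 with the next at 69.8%, and 57.2% in W22 with the next at 63.0%. Beside the start island, Sham-OVA replicate 4 had 49.5% in W26 with the next at 39.7%. In the Lhpp DMR (W529), Sham replicate 4 had 52.7% with the next at 49.5%, and PM replicate 1 had 54.4% with the next at 49.0%. Outside these, Sham replicate 2 had 68.2% in W156 with the next at 72.6%, Sham-OVA replicate 7 had 69.1% in W470 with the next at 63.1%, PM-OVA replicate 6 had 62.1% in W111 with the next at 66.2%, and PM replicate 5 had 57.0% in W348 with the next at 59.8%. No interaction of maternal exposure and OVA passed an adjusted p of 0.05 in the stretch.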

How the results depend on the processing

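The counts of changed windows, in the stretch and in the gene body, stayed within 1.5 times under an offset of 5 points, the percent scale, centred libraries, windows with a value in every library, and fits of 2 groups. With the replicate block 241 and 319 windows changed in Sham and PM offspring, 9 and 14 of them in the gene body, and none of the 34 named window differences lost its call. Of the changed windows, 234 of 244 and 306 of 328 remained changed with the block. Among the other windows named, the PM rise at the Gpr26 start (W382) was lost with it (adjusted p = 0.0534) and the Sham rise at the Hmx2 start (W297) gained a call (adjusted p = 0.0399). Leaving out a library gave 216 to 254 and 302 to 332 changed windows in Sham and PM offspring, 8 to 10 and 12 to 17 in the gene body, and 1 to 3 and 0 DMRs. The Sham DMR count fell to 1 without Sham replicate 1 or 6 or without Sham-OVA replicate 1, 3 or 6, and centring gave 3. A minimum of 5 points gave 39 and 41 DMRs. An adjusted p under 0.000001, the study's p threshold, left 0 and 13 changed windows, 0 in the gene body in both arms and 0 Sham DMRs. The counts of the table at these settings are not given here, so nothing particular to the stretch is read from them. Among 1190 refits of 34 named window differences none changed the direction of a called window, 1 lost a call and 7 gained one. In 11 more, a difference that passed in neither fit changed sign. At the Fgfr2 start (W29), leaving out 1 library gave PM differences from −0.264 to 0.160 points. Unknown read depth per window limits every value, most of all near 0%.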
